A study of Mus musculus with 6 samples.

Results

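Transcript levels of DNA damage signalling and homologous recombination genes were examined in mouse embryo fibroblasts (MEFs) that do or do not missegregate their chromosomes. The genes were chosen by name: Brca1, Brca2, Rad54l, Blm, Chek1, Chek2, Atm, Atr and Fancd2. All probe sets that the platform annotation gives to exactly 1 gene symbol were taken where that symbol was one of these. This gave 16 probe sets for 8 of the 9 genes, of 12393 genes named by such probe sets in all. Fancd2 was not analysed here, since no such probe set named it. The study hybridised RNA of 6 MEF lines to 6 Affymetrix arrays. The 3 chromosomally unstable lines were 2 lines labelled BubR1H/H and 1 line labelled CDC20AAA/AAA. Per the labels both genotypes are hypomorphic, for BubR1, a kinase of the mitotic checkpoint, and for CDC20, the activator of the anaphase-promoting complex that this checkpoint holds back. The 3 stable lines were 2 lines labelled BubR1+/+ and 1 labelled CDC20+/+. All lines were grown for 2 passages under the same conditions. The sample titles give the numbers 9515, 9938 and 10074 to 1 unstable and 1 stable line each, and lines of the same number are called a pair. The BubR1 lines make up pairs 9515 and 9938, and the CDC20 lines make up pair 10074, so each CDC20 genotype is represented by a single line.

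When DNA breaks or a replication fork stalls, the apical kinases ATM and ATR phosphorylate many proteins, among them the effector kinases CHK2 and CHK1, which hold back the cell cycle. Breaks that arise while a sister chromatid is present can be repaired by homologous recombination, in which BRCA1 acts early in break processing and recruitment, BRCA2 acts after it at the processed ends, RAD54 remodels DNA during strand exchange, and the BLM helicase takes joined molecules apart. Transcripts of many recombination factors and of Chek1 are known to be more abundant in dividing cells, in part through E2F factors at their promoters, whereas ATM and ATR are regulated largely as proteins. Brca1, Brca2, Rad54l, Blm and Chek1 are therefore called the proliferation-linked genes here, and Chek2 is counted with them by name alone. The grouping did not use the values, but the genes were chosen with earlier results of these data known.

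Since most of the 8 genes differ in the same direction below and Atm and Atr less evenly, their promoters were compared, and 4 of them are shown. RefSeq promoters of the build GRCm38.p6, each with 250 bases before and 50 after the start, were found for all 8. They were searched on both strands for the E2F sites TTTCCCGC, TTTCGCGC, TTTGCCGC and TTTGGCGC, for the CHR element TTTGAA and for the CCAAT box; no matches overlap in the windows of the 8 genes. Brca2 and Chek2 held TTTCCCGC on the minus strand relative to the gene, with the first base at -168 and -152 from the start. Of all 32851 mouse promoters, 1.07% held TTTCCCGC and 2.26% any of the 4 E2F sites. CCAAT, held by 37.4% of all promoters, occurred in Brca1, Rad54l, Blm, Chek2 and Atm, and TTTGAA, held by 17.9%, in none of the 8. Chek1 and Atr matched none of these letters. A match describes the letters and is no evidence of a bound factor. Shown 5′ to 3′ in the gene's direction, with matches in capitals, are bases upstream of the start of Brca2 (chr5:150522371-150522620, plus strand), whose difference had the smallest SE of the 8, of Chek2 (chr5:110839794-110839982, plus strand), which shares its E2F letters, of Blm (chr7:80534999-80535248, minus strand), with CCAAT alone, and of the kinase gene Atm (chr9:53536672-53536888, minus strand). The stretches of Chek2 and Atm stop where the neighbouring genes Hscb and Npat begin.
Brca2: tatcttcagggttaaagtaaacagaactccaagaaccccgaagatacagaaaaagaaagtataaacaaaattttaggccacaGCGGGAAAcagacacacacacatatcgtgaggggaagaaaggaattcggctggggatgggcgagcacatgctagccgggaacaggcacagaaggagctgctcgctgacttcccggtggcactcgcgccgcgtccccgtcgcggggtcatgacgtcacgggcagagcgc
Chek2: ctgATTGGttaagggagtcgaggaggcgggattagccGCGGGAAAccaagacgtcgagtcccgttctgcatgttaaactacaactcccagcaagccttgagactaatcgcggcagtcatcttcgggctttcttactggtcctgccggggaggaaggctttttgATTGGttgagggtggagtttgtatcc
Blm: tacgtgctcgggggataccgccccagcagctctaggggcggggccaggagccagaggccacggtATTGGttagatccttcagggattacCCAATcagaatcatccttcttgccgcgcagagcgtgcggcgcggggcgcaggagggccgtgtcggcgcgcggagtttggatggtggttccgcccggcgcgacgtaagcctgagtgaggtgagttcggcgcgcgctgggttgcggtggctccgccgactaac
Atm: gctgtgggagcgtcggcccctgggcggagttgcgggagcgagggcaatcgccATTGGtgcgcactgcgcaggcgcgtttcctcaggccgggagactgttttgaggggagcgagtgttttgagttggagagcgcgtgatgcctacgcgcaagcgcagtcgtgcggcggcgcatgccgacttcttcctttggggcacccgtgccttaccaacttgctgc

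Values are the authors' log2 expression values, and a difference is unstable minus stable on that scale. Array medians lay between 6.16 and 6.20. As a check of the labels, Bub1b, which encodes BubR1, differed by -1.66, -2.08 and -0.62 in pairs 9515, 9938 and 10074. It was thus also lower in the CDC20 pair, whose labels name no BubR1 allele. Cdc20 differed by -0.103, -0.807 and -0.805 in the same pairs, so its level did not set the CDC20 pair apart. All 12 fibroblast markers lay above a log2 value of 4 on all 6 arrays. Of 4 endothelial markers, Pecam1 and Cdh5 lay below 4 on all arrays, while Kdr reached 4 on 4 arrays and Tek on 1. Of 4 epithelial markers, Epcam and Cdh1 lay below 4 on all arrays, while Krt18 lay at 5.93 to 7.02 and Krt8 reached 4 on 3 arrays. The mean over the endothelial list was 3.17 to 3.24 in stable and 3.11 to 3.26 in unstable lines, and over the epithelial list 3.83 to 4.43 and 3.47 to 4.48. Macrophage and leukocyte markers were present: 13 of 15 reached 4 on all arrays, with a mean over the list of 7.11 to 9.53 in stable and 6.94 to 9.72 in unstable lines, and Itgam lay below 4 on every array. Their median differences were -0.07, 0.16 and -0.99 in pairs 9515, 9938 and 10074. All 14 of them that were tested were lower over the group means, 2 in all 3 pairs, and their part in the results was not tested. RNA levels of bulk cultures cannot tell fewer cells of a type from less RNA per cell. Separate embryos are not named in the labels, and p-values therefore cover only how these lines vary.

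All 8 measured genes were lower in the mean of the unstable lines than in that of the stable lines, by differences of -0.26 to -0.72, where 52.1% of the 8382 genes tested were lower. By its brightest probe set, each of the 6 proliferation-linked genes was lower in all 3 pairs, as were 19.3% of all genes tested. Atm and Atr were lower in pairs 9515 and 10074 but not in pair 9938. In Brca1, Brca2, Rad54l and Blm the groups of that probe set did not overlap, as in 6.41% of all genes. Every unstable line there lay below every stable line. The groups of a dimmer Brca1 probe set did overlap, as given below. No single gene passed the test: limma with Benjamini-Hochberg adjustment over all genes gave adjusted p = 0.999 for each of the 8, and it called 0 genes (0%) lower. At an unadjusted p under 0.05, 3 of the 8 genes were lower (Brca1, Brca2 and Blm), beside 2.93% of all genes.

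**Figure D1:**
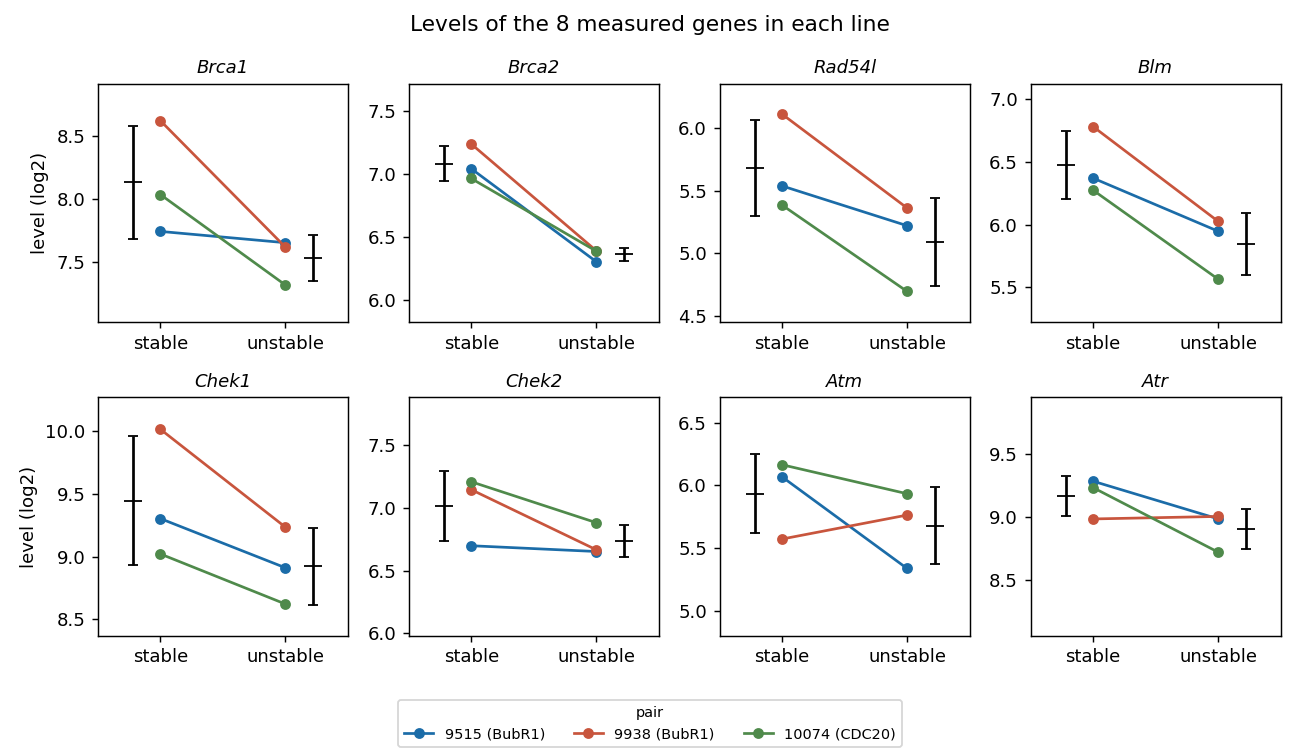
Log2 level of each of the 8 genes, by its brightest probe set, in the 6 lines. Stable lines are on the left and unstable lines on the right. Joining lines link the arrays of a pair, and black bars give the group mean ± SD (n = 3). Every panel spans the same log2 range. The unstable lines lie below all stable lines for Brca1, Brca2, Rad54l and Blm, and the joining line of pair 9938 does not descend for Atm (5.57 to 5.76) and Atr (8.985 to 9.005).

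Brca2, whose protein acts on the processed ends of breaks, had the difference with the smallest SE. Its level was 7.04, 7.24 and 6.97 in the stable lines of pairs 9515, 9938 and 10074, and 6.30, 6.39 and 6.39 in the unstable lines. The 3 unstable lines thus lay within 0.1 of each other and below every stable line. Stable lines averaged 7.08 ± 0.14 (SD, n = 3) and unstable lines 6.36 ± 0.05 (SD, n = 3), a difference of -0.72 (SE 0.10), which is 1.65-fold lower with a 95% interval of 1.38 to 1.97 by limma. The unadjusted p was 4e-04 and the adjusted p = 0.999 by limma. Blocking on the pair, limma gave 6e-04 and adjusted p = 0.262. Whichever line or pair was left out, the difference stayed between -0.65 and -0.80. Brca2 is represented by a single probe set, so its size could not be set against another.

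Blm encodes the helicase that is lost in Bloom syndrome. It measured 6.37, 6.78 and 6.27 in the stable lines of pairs 9515, 9938 and 10074 and 5.95, 6.03 and 5.57 in the unstable lines. The pair differences of -0.42, -0.76 and -0.71 ran the same way, and the groups did not overlap. The mean difference was -0.63 (SE 0.19), or 1.55-fold lower (95% interval 1.13 to 2.12), with an unadjusted p of 0.015 and an adjusted p = 0.999 by limma. With the pair as a block the SE was 0.10 (unadjusted p = 0.0018, adjusted p = 0.262 by limma). Leaving out any line or pair kept the difference between -0.48 and -0.73.

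Rad54l, the gene of the RAD54 translocase, had 3 probe sets that were lower in every pair. The brightest measured 5.54, 6.11 and 5.39 in the stable lines of pairs 9515, 9938 and 10074 and 5.22, 5.36 and 4.70 in the unstable lines. Its pair differences were -0.32, -0.75 and -0.69, those of the next probe set -0.74, -0.86 and -0.74. The dimmest, which reached a log2 value of 4 on only 2 arrays, gave -0.77, -0.75 and -0.92. The difference of the brightest was -0.58 (SE 0.25; unadjusted p = 0.061, adjusted p = 0.999 by limma). With the pair as a block its SE was 0.12 (unadjusted p = 0.0042, adjusted p = 0.265 by limma). The difference was -0.37 when the stable line of pair 9938 was left out and -0.39 when the unstable line of pair 10074 was.

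Brca1, which acts in break processing and in bringing the BRCA2 complex to breaks, differed less evenly between pairs. Its brightest probe set measured 7.74, 8.63 and 8.04 in the stable lines of pairs 9515, 9938 and 10074 and 7.65, 7.62 and 7.32 in the unstable lines. The level was thus close to equal in pair 9515, at a difference of -0.09, and lower by 2.01-fold and 1.65-fold in pairs 9938 and 10074. The stable line of pair 9938 stood highest. Over the groups the difference was -0.61 (SE 0.24; unadjusted p = 0.045, adjusted p = 0.999 by limma). With the pair as a block the SE was 0.19 (unadjusted p = 0.024, adjusted p = 0.344 by limma). Without the stable line of pair 9938 the difference was -0.36, and as the mean of the gene's 4 probe sets it was -0.29. Those probe sets disagreed in pair 9515, where the next brightest gave 0.11 and a dimmer one -0.39. In pairs 9938 and 10074 the former gave -0.72 and -0.31 and the latter -0.15 and -0.31. The groups of the next brightest overlapped, while those of the dimmer one did not. On the next brightest, the stable line of pair 9515 measured 4.80, below the unstable lines of pairs 9515 (4.92) and 9938 (4.94). The dimmest lay near 2 on all arrays, below the floor of 4.

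**Figure D2:**
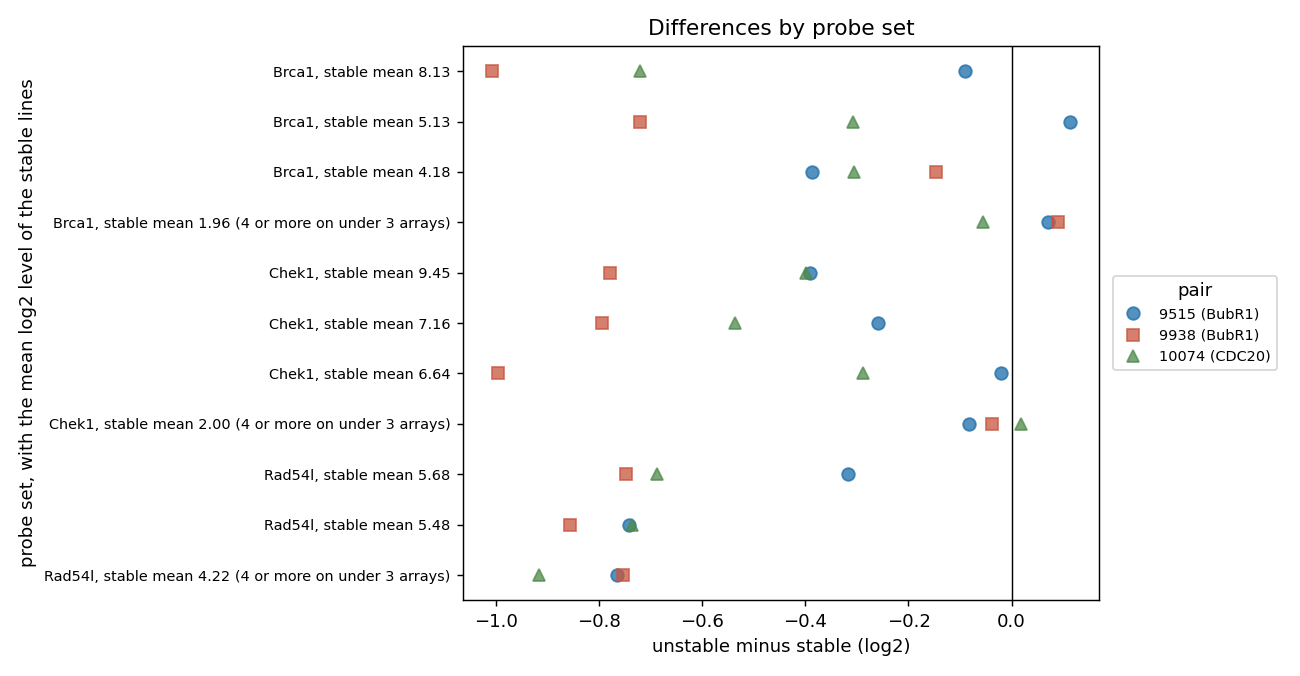
Unstable minus stable difference in each pair (log2, horizontal axis) for every probe set of Brca1, Chek1 and Rad54l, ordered within a gene by the mean log2 level of the stable lines, which is printed beside each. The Rad54l probe sets lie between -0.32 and -0.92 in all pairs, while the upper Brca1 probe sets lie on either side of 0 in pair 9515.

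Among the checkpoint effector kinases, Chek1, which encodes the main target of ATR, was lower in each pair. Its brightest probe set measured 9.30, 10.02 and 9.02 in the stable lines of pairs 9515, 9938 and 10074 and 8.91, 9.24 and 8.62 in the unstable lines. The groups overlapped, because the unstable line of pair 9938 lay above the stable line of pair 10074. The difference was -0.52 (SE 0.29; unadjusted p = 0.12, adjusted p = 0.999 by limma), and the spread between stable lines (SD 0.51) was of the same size. With the pair as a block the SE was 0.11 (unadjusted p = 0.0059, adjusted p = 0.265 by limma). The stable line of pair 9938 contributed most, and without it the difference was -0.24. The next brightest probe set gave -0.26, -0.79 and -0.54 in pairs 9515, 9938 and 10074, and its groups did not overlap. A dimmer one gave -0.02, -0.997 and -0.29, and the dimmest lay near 2 on all arrays.

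Chek2, the gene of the effector kinase downstream of ATM, had the smallest difference of the proliferation-linked genes. It measured 6.70, 7.15 and 7.21 in the stable lines of pairs 9515, 9938 and 10074 and 6.65, 6.67 and 6.88 in the unstable lines. The stable line of pair 9515 lay among the unstable lines, so the groups overlapped. Over the 6 arrays Pearson's r of Chek2 was 0.33 with Chek1, 0.36 with Rad54l, 0.47 with Blm, 0.64 with Brca2 and 0.67 with Brca1. Its highest line, the stable line of pair 10074, and its lowest, the unstable line of pair 9515, were those of Atm too. The difference was -0.28 (SE 0.16; unadjusted p = 0.13, adjusted p = 0.999 by limma). Leaving out the stable line of pair 9515 gave -0.44, and leaving out that of pair 10074, or all of pair 9938, gave -0.19. Chek2 shares E2F letters with Brca2, as printed above. The pair differences were -0.05, -0.48 and -0.33 for Chek2 and -0.74, -0.85 and -0.58 for Brca2. Whether the letters bear on these differences was not tested.

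The apical kinases did not share 1 order of the lines, and Pearson's r between Atm and Atr over the 6 arrays was 0.42. With the 6 proliferation-linked genes r was -0.23 to 0.34 for Atm and 0.09 to 0.58 for Atr. Among those 6 genes it was 0.33 to 0.98. Atm, mutated in ataxia telangiectasia, measured 6.07, 5.57 and 6.16 in the stable lines of pairs 9515, 9938 and 10074 and 5.34, 5.76 and 5.93 in the unstable lines. It was 1.66-fold lower in pair 9515 and 0.19 higher on the log2 scale in pair 9938, and the groups overlapped. The difference of -0.26 (SE 0.22; unadjusted p = 0.29, adjusted p = 0.999 by limma) rested on pair 9515: without that pair it was -0.02, without its unstable line -0.09, and without the stable line of pair 10074 it was -0.14. Without the stable line of pair 9938 it was -0.44, and without pair 9938 it was -0.48.

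Atr, whose kinase responds to single-stranded DNA at stalled forks, measured 9.29, 8.985 and 9.24 in the stable lines of pairs 9515, 9938 and 10074 and 8.99, 9.005 and 8.72 in the unstable lines. The pair differences were -0.30, 0.02 and -0.51. The stable line of pair 9938 lay at the level of the unstable lines. The difference was -0.26 (SE 0.13; unadjusted p = 0.089, adjusted p = 0.999 by limma), -0.17 without the unstable line of pair 10074, -0.14 without pair 10074 and -0.41 without pair 9938. Atm and Atr each had a single probe set.

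The contrast between the proliferation-linked genes and the apical kinases was largest in pair 9938 and differed between pairs. The median difference of the 6 proliferation-linked genes was -0.35, -0.77 and -0.63 in pairs 9515, 9938 and 10074, beside medians over all tested genes of 0.001, -0.003 and -0.027. The mean of Atm and Atr was -0.52, 0.11 and -0.37. All 6 proliferation-linked genes differed more negatively than Atm and Atr in pair 9938. In pair 10074 all 6 did so against Atm and 4 against Atr, and in pair 9515 only Brca2 did so against Atm and 4 against Atr. The median of the 6 minus the mean of Atm and Atr was therefore 0.16, -0.87 and -0.26 in the 3 pairs, with a mean of -0.32 ± 0.52 (SD, n = 3), and the spread between pairs exceeded the mean. Without pair 9938 the mean was -0.05. As a score over genes chosen with earlier results of these data known, it was not tested.

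**Figure D3:**
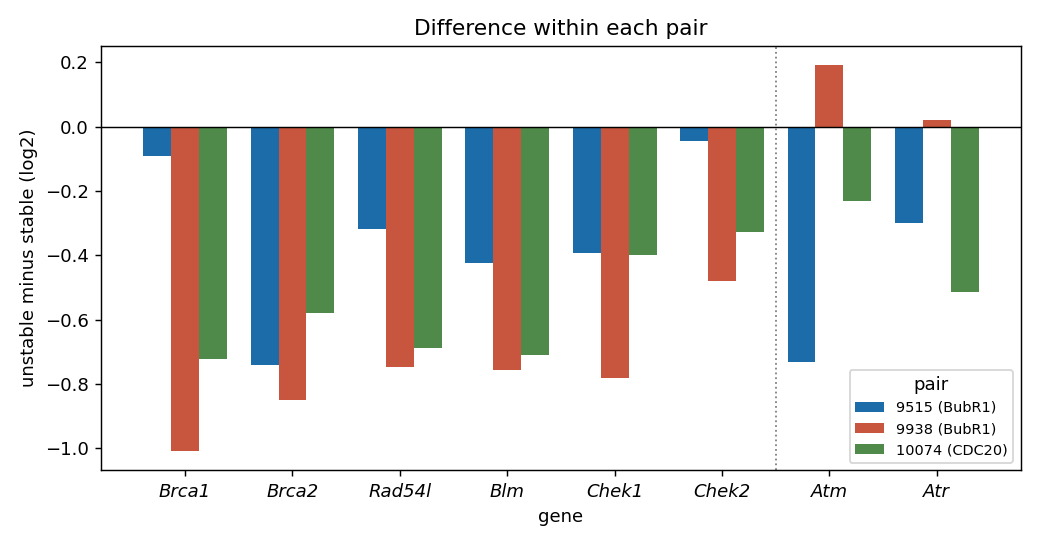
Unstable minus stable difference (log2) of each gene in the 3 pairs, with the proliferation-linked genes left and Atm and Atr right of the dotted line. The bars of pair 9938 point down for all 6 proliferation-linked genes (-0.48 to -1.01) and slightly up for Atm and Atr (0.19 and 0.02), while in pair 9515 Atm (-0.73) is as low as Brca2 (-0.74).

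In the limma fit that blocks on the pair, 5 of the 8 genes (Brca1, Brca2, Rad54l, Blm and Chek1) had an unadjusted p under 0.05 with a lower level, beside 6.92% of all genes. Chek2, Atr and Atm had unadjusted p = 0.054, 0.091 and 0.23 in that limma fit. None of the 8 passed after adjustment, at adjusted p = 0.262 to 0.630 by limma, and 0 genes of the array did. The effect of the CDC20 alleles was also set against that of BubR1H/H. The difference between the effects, CDC20 minus BubR1, lay between -0.37 for Atr and 0.22 for Brca2, with SEs of 0.25 and 0.21. No gene was called (0% of all genes; adjusted p = 0.9995 for each of the 8 by limma), and unadjusted p-values of the 8 were 0.22 to 0.94 in that limma model. With 1 line for each CDC20 genotype this does not show that the alleles act alike.

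Levels over the 6 arrays showed which lines set these values. The stable line of pair 9938 was highest for Brca1, Brca2, Rad54l, Blm and Chek1. The unstable line of pair 10074 was lowest for Brca1, Rad54l, Blm and Chek1, and also for Atr. Averaged after centring each gene, the 6 proliferation-linked genes stood at 0.09, 0.63 and 0.12 in the stable lines of pairs 9515, 9938 and 10074 and at -0.25, -0.14 and -0.45 in the unstable lines. A list of 23 proliferation genes, among them Mki67, Top2a, Mcm2 and Ccnb2, stood in the same lines at 0.15, 0.56 and 0.07, and at -0.09, -0.06 and -0.63. The highest and the lowest line were thus the same by both measures, and every unstable line lay below every stable line in both. All 23 proliferation genes were lower in all 3 pairs, beside 19.3% of all genes tested. The medians of the 23 were -0.26, -0.63 and -0.81. Whether the repair genes differ beyond what goes with proliferation was not tested.

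**Figure D4:**
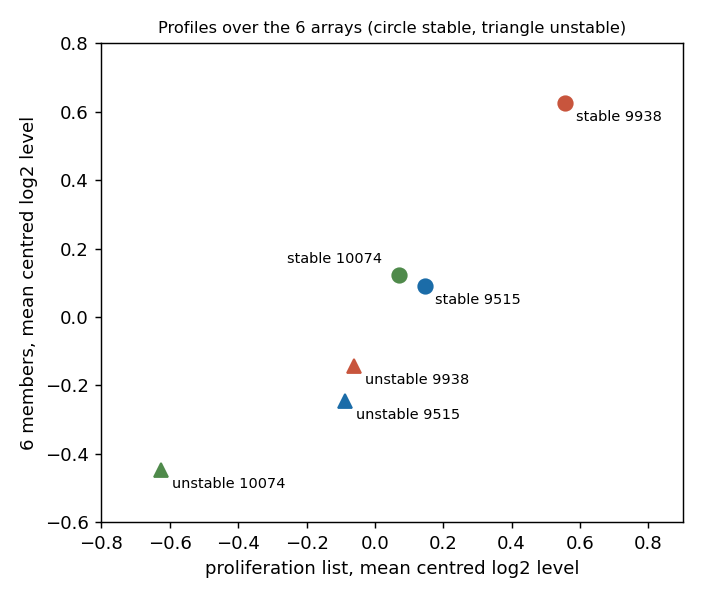
Mean centred log2 level of the 6 proliferation-linked genes (vertical axis) against that of the 23 proliferation genes (horizontal axis) on each array, circles for stable and triangles for unstable lines. The stable line of pair 9938 lies at the upper right (0.56 and 0.63) and the unstable line of pair 10074 at the lower left (-0.63 and -0.45).

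The tested genes most like the mean profile of the proliferation-linked genes over the 6 arrays, by Pearson's r, were Chaf1b, a subunit of the chromatin assembly factor that works at replication forks (r = 0.994), Rangap1 (0.991), Sf3a3 (0.989), Defa3 (0.987) and Nup43 (0.986). Ddx54 (0.966), Ptpn23 and Tnfaip1 (0.951 each) were most like Atm, and Tmem128 (0.992), Mrpl12 (0.977) and Col5a3 (0.975) most like Atr. These are rankings over 6 arrays that form 3 pairs, given as a description.

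Other genes of the pathway were taken from lists. Of the homologous recombination list, 18 of 28 genes had a probe set of their own and 16 were tested. Of these, 11 were lower by their means and 8 in every pair, beside 52.1% and 19.3% of all genes tested. The median difference of the 16 was -0.10, beside -0.01 for all tested genes, and it was -0.07, -0.22 and -0.13 in pairs 9515, 9938 and 10074. Exo1, the nuclease that resects break ends, differed by -0.77 (SE 0.33), with pair differences of -0.10, -1.06 and -1.15. Its groups did not overlap, as in 6.41% of all genes tested. Of the other genes the rule names here, Bard1 did not reach the floor, and Palb2, Brip1 and Rbbp8 were not analysed here.

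Of the Fanconi anaemia list, whose products handle DNA crosslinks together with FANCD2, all 11 genes with a probe set were tested. By their means 10 were lower, and 9 of the 11 in all 3 pairs, beside 52.1% and 19.3% of all genes tested. The median of the 11 was -0.26, and by pair it was -0.21, -0.27 and -0.27. Fanca, a core complex gene, differed by -0.44 (SE 0.12) and Fanci, whose protein pairs with FANCD2, by -0.32 (SE 0.13). In both the groups did not overlap, as in 6.41% of all genes tested. Ube2t, the E2 enzyme that ubiquitinates FANCD2, differed by -0.53 (SE 0.33), with -0.003 in pair 9515, and Usp1, which removes that ubiquitin, by -0.38 (SE 0.26).

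Of 17 tested damage sensors, mediators and checkpoint adaptors, 16 were lower over the means and 12 in all 3 pairs. Of all genes tested, 52.1% and 19.3% were. The median of these 17 genes was -0.28, and by pair it was -0.12, -0.29 and -0.41. The subunits of the break-sensing MRN complex were among them: Mre11a differed by -0.40 (SE 0.18), Rad50 by -0.28 (SE 0.14) and Nbn by -0.25 (SE 0.10). Topbp1, which activates ATR, differed by -0.30 (SE 0.13), the fork protection gene Timeless by -0.60 (SE 0.18) and Rpa1, of the protein that coats single-stranded DNA, by -0.38 (SE 0.11). The histone gene H2ax differed by -0.36 (SE 0.24), with 0.025 in pair 9515 and -0.84 in pair 9938. Trp53bp1, which steers breaks away from recombination, was the exception at 0.10 (SE 0.17).

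The cell cycle enzymes on which the checkpoint kinases act were lower in all 5 tested genes and in all 3 pairs. Of all genes tested, 19.3% were lower in all 3 pairs. The median of the 5 was -0.51, with pair medians of -0.31, -0.57 and -0.57. Cdc25a, the phosphatase that CHK1 marks for destruction, differed by -0.37 (SE 0.08) with pair differences of -0.31, -0.43 and -0.37. Wee1, the kinase that opposes it, differed by -0.32 (SE 0.23) with pair differences of -0.18, -0.57 and -0.22.

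Genes of end joining, the repair route that needs no sister chromatid, had a median difference of -0.09 over 4 tested genes. Of these, 3 were lower over the means and 1 in all pairs, beside 52.1% and 19.3% of all genes tested. Prkdc, which encodes the DNA-dependent protein kinase of the ATM family, differed by -0.04 (SE 0.12), and Mtor, of the same kinase family, by -0.03 (SE 0.13). The Ku subunit genes Xrcc5 and Xrcc6 differed by -0.14 (SE 0.21) and -0.31 (SE 0.14). The groups of Xrcc6 did not overlap, as in 6.41% of all genes tested. Of the p53 list 18 genes were tested, without Trp53 itself, which was not analysed here. Of these, 13 of 18 were higher over the means, beside 4013 of the 8382 genes tested. In all 3 pairs 8 were higher, beside 16.9% of all genes. The median of the 18 was 0.07. At an unadjusted p under 0.05 by limma, 0 of the 18 were higher, beside 113 of the 8382 genes tested. The p53 targets Cdkn1a and Mdm2 differed by 0.15 (SE 0.12) and -0.03 (SE 0.19).

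In all of these lists 0 genes passed the limma test adjusted over all genes. At an unadjusted p under 0.05 by limma, lower levels were found for 2 of 16 recombination, 2 of 11 Fanconi, 4 of 17 sensor, 4 of 5 cell cycle, 0 of 4 end joining and 0 of 18 p53 genes, beside 2.93% of all genes tested. Beside the pair medians of these lists stand those of the 14 tested macrophage markers, at -0.14, 0.17 and -1.09 in pairs 9515, 9938 and 10074.

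**Figure D5:**
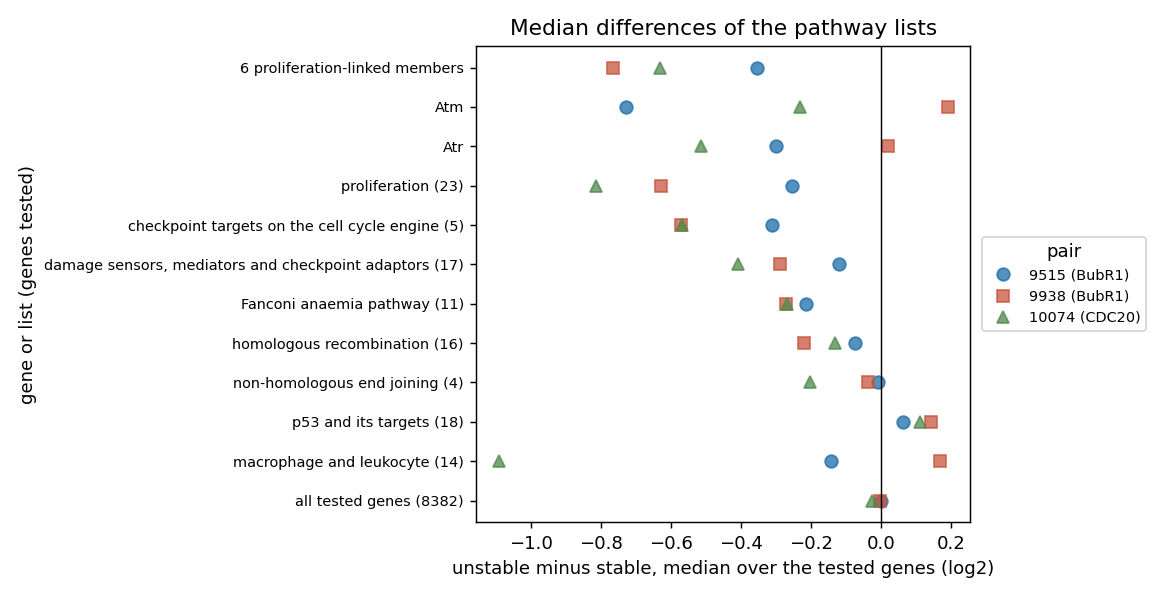
Unstable minus stable difference (log2) in each pair for the median of the 6 proliferation-linked genes, for Atm and Atr, and for the median of the tested genes of each list, whose number stands in brackets. The proliferation list lies at -0.26 to -0.81 and the cell cycle targets at -0.31 to -0.57, the end joining list at -0.01 to -0.20, and the p53 list above 0 (0.06 to 0.14).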

How the data were processed

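The authors deposited 1 table of log2 values with a column for each of the 6 arrays. Per the submitters' processing notes they used R 2.15.3 and GCRMA 2.28.0, which corrects the background, gives all arrays a shared distribution and reports 1 value per probe set. Scanner intensities were not analysed here. Such values understate differences of dim probe sets, and array-wide differences in brightness are removed.

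Of 22626 probe sets, 20380 carried a single gene symbol. A gene's brightest probe set, by its average on all arrays, stood for it. Tested were the 8382 genes that reached 4 (log2) on 3 or more arrays, all 8 measured members included. Unstable minus stable was fitted with limma 3.58.1 in R 4.3.3 without a block, by its moderated two-sided test from lmFit and eBayes, at an adjusted p under 0.05 (Benjamini-Hochberg, all tested genes). A model with 4 groups gave the difference between effects. Permutation of 3 against 3 lines cannot go below 0.1, so it was not used. Depth has no meaning for arrays, and their number limits the precision.

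Deviations from the group means correlated across genes at 0.812, 0.681 and 0.602 between lines that share the numbers 9515, 9938 and 10074 in their titles, so the numbers were taken to pair the lines. The members, lists and tests were chosen with earlier results of these data known. The named genes were all members and pathway genes picked by role, with the most similar profiles; some of these are not reported here. Alternatives were other filters, the mean of probe sets, quantile normalization, weights per array, a robust prior with a trend in intensity, a block and leaving out lines or pairs.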

Additional observations from a re-analysis of the deposited data

Results flagged for a closer look

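Mdm2, the gene of the ubiquitin ligase of p53, differed by -0.07 and -0.23 in the BubR1 pairs 9515 and 9938 and by 0.21 in the CDC20 pair, so the BubR1 pairs and the CDC20 pair ran in opposite directions. The CDC20 effect minus the BubR1 effect was 0.36 (unadjusted p = 0.31, adjusted p = 0.9995 by limma), and with 1 line for each CDC20 genotype it had no replicate of its own. Groups of 3 lines were too small to be searched for outlying samples.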

How the results depend on the processing

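The 8 genes kept their direction and stayed short of the adjusted threshold by limma in every alternative in which they were tested, 18 each for Atm and Rad54l, which a floor of 6 left out, and 19 for the others. Over these, adjusted p ranged from 0.227 to 1, and the replicate block gave 0.262 to 0.630. No alternative called a gene of the array in either direction: the count was 0 with the replicate block and in all others. The number of genes whose groups did not overlap, 4 of 8, was 4 to 7 with lines or pairs left out. It was 6 without the stable line of pair 9938 (11.4% of all genes), which then included Atm and Atr, 7 without pair 9938 (14.8%) and 6 without pair 10074 (16.4%); fewer lines also raise the share of all genes. The difference between the CDC20 and BubR1 effects changed sign for 6 genes when 1 BubR1 line was left out (a line of pair 9515, or for Chek1 the stable line of pair 9938), and ranged from -0.61 to 0.27 for Brca1, -0.44 to 0.13 for Rad54l, -0.33 to 0.0855 for Blm, -0.17 to 0.54 for Chek1, -0.29 to 0.16 for Chek2 and -0.21 to 0.29 for Atm. The cause was not tested. Leaving out a CDC20 line gives no value for it. The proliferation-linked genes minus Atm and Atr ranged from -0.57 without pair 9515 to -0.05 without pair 9938, within the spread between pairs. The blocked fits with a pair left out and the counts of non-overlapping groups with lines left out were added after seeing the data. Rad54l, Atm and the dimmer Brca1 probe sets lie close to the floor, where sizes are approximate.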
